A study of Mus musculus with 9 samples.

Results

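Red cells carry a dense set of membrane proteins tied to a skeleton of spectrin and actin, and 8 genes of that set were followed here across 3 groups of mouse bone marrow cells. The genes were Aqp1, Slc4a1, Rhd, Rhag, Ermap, Kel, Epb42 and Ank1. They were chosen by symbol, and each had 1 transcript cluster, that is, a set of array probes combined into 1 value. They are 8 of 18797 gene symbols on the array, and none was lost to a filter. Expression was measured on 9 arrays, 3 per group. Marrow of 8-week female C57BL/6 mice was taken 6 days after a dose of 150 mg/kg of 5-fluorouracil, which spares resting stem cells, in all 3 groups. Lin-Sca+Kit+ cells were infected 2 times with a retrovirus, and GFP-positive cells were sorted after 72 h of culture. The control virus was the empty EGFP vector MIE, and the others carried cDNA of GATA2 wild type (GATA2WT) or of the variant GATA2 R396Q (GATA2R396Q). The labels do not tie any array to a mouse or a culture. They call the cells hematopoietic stem cells, and with empty vector the progenitor genes Kit and Cd34 were bright (12.27 and 13.21 in log2 signal), as was the granulocyte precursor gene Mpo (17.52).

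As background, band 3, encoded by Slc4a1, exchanges chloride for bicarbonate and anchors the membrane. Ankyrin, from Ank1, links it to spectrin, and protein 4.2, from Epb42, binds both. The Rh protein from Rhd reaches the surface with its partner glycoprotein from Rhag. Kell, from Kel, is a zinc endopeptidase that is bound to the Xk protein, and Ermap encodes a butyrophilin-like protein that carries the Scianna blood group. Aqp1 encodes the water channel that carries the Colton blood group. Red cell precursors switch on these genes as they mature, under GATA1, Klf1 and the partners of GATA1. GATA2 acts earlier, in stem and progenitor cells.

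The start regions of 6 of the 8 genes were in the RefSeq promoter table (GRCm38.p6), all but Slc4a1 and Ank1. The stretches below hold the 120 bases before the annotated start, on the gene's own strand. They are shown because the genes rose together with wild type and the study expressed a GATA factor. Capitals mark the GATA motif, searched on both strands as AGATAA or as AGATAG, and with another first base as TGATAA or as TGATAG. Rhd, Rhag, Ermap and Kel held it in this stretch, and Aqp1, the gene with the largest rise, is shown beside them. In the order printed they are chr4:134864416-134864535 (+ strand), chr17:40811029-40811148 (+), chr4:119189996-119190115 (-), chr6:41704326-41704445 (-) and chr6:55336179-55336298 (+).
Rhd: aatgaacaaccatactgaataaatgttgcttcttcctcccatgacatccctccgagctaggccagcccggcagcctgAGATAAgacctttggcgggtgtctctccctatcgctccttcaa
Rhag: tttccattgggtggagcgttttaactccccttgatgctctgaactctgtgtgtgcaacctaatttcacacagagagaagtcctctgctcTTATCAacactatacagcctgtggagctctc
Ermap: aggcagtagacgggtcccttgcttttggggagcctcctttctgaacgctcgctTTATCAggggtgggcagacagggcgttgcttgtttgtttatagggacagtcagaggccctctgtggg
Kel: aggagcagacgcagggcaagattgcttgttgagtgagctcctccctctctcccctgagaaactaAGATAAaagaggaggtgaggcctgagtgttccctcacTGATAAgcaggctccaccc
Aqp1: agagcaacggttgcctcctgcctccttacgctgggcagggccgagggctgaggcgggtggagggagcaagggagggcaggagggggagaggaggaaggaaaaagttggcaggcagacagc

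Counted from the start of the gene to the first base of the match, the GATA motif began 43 bases before the start of Rhd, 31 before Rhag, 67 before Ermap, and 56 and 19 before Kel. Over the whole window of 300 bases, from 250 before to 50 after the start, Epb42 held it as well, 226 bases before the start. So 5 of the 6 windows (83.3%) held a GATA motif, against 30.2% of 27025 promoters of the same length and 25.2% of the 701 in the table whose gene was higher with wild type. The Klf-type motif CACCC was found on either strand in 5 of the 6 (83.3%), all but Epb42. It was in 56.7% of all promoters and in 64.8% of the 701. The E-box CANNTG was found in 4 of the 6 (66.7%), against 72.1% of all promoters and 63.9% of the 701. No match of 1 of these motifs overlapped a match of another in the 6 windows. These are descriptions of letters in a short window, and no binding was measured.

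**Figure D1:**
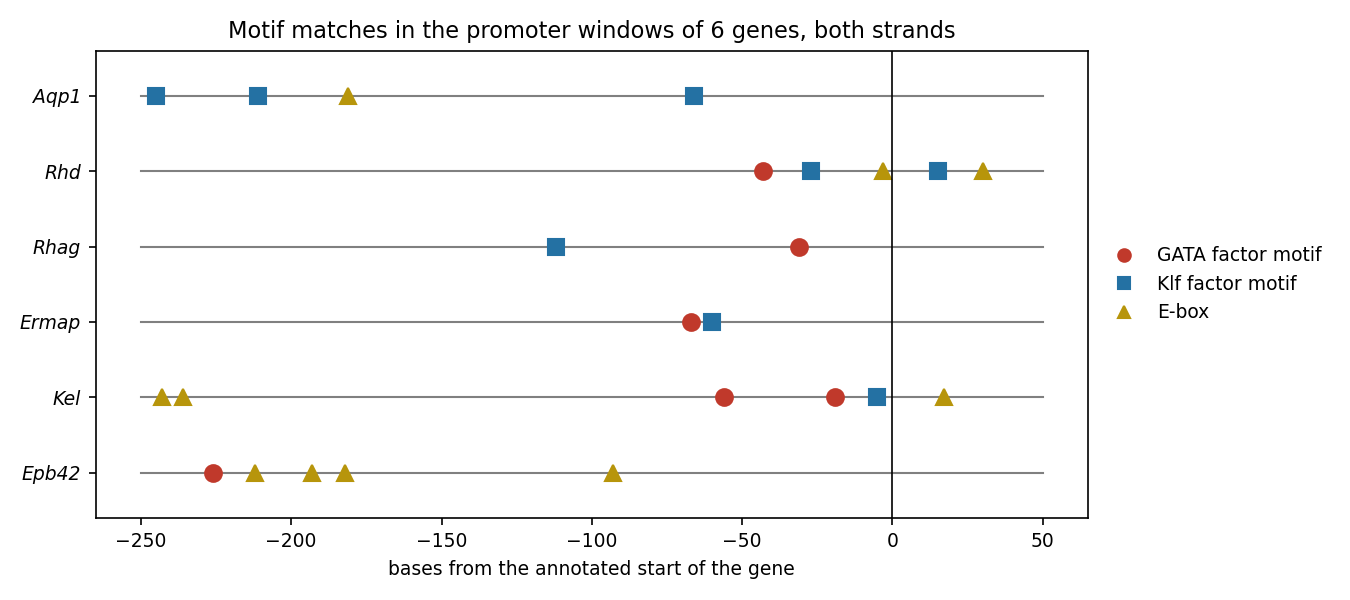
Positions of motif matches in the promoter windows of 6 genes, with the distance in bases from the annotated start on the x axis and 1 gene per line. Circles mark the GATA factor motif, squares the Klf factor motif and triangles the E-box. Rhd, Rhag, Ermap and Kel have a GATA match within 67 bases before the start, Epb42 has one at 226 bases, and Aqp1 has none in the window.

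With GATA2 wild type, 6 of the 8 genes rose over empty vector and none fell. These were Aqp1 (110-fold), Rhag (13.9-fold), Ermap (9.90-fold), Kel (7.55-fold), Ank1 (5.09-fold) and Rhd (3.90-fold). Epb42 (2.08-fold) and Slc4a1 (1.28-fold) did not pass the test. With R396Q none of the 8 passed against empty vector in either direction, and the same 6 genes were lower than with wild type. The test was limma's linear model over all 9 arrays, with p adjusted by Benjamini-Hochberg over 21072 clusters and 0.05 as the threshold. Of all clusters, 4.64% were called higher and 4.35% lower with wild type. With R396Q against wild type, 3.08% were called lower and 2.67% higher, and against empty vector 1.23% were called in either direction. The wild type arrays did not overlap with those of empty vector, all lying higher, for 8 of the 8 genes (10.8% of all clusters). R396Q lay wholly below wild type for 8 of the 8 (9.59% of all clusters). With R396Q against empty vector none of the 8 was called with the replicate number as a block (1.66% of all clusters called higher and 1.34% lower). Without the block none had an unadjusted p under 0.05, but the share of all clusters below it was not counted. The SE is common to the 3 groups and takes in the wild type arrays, whose SD was the largest for all 8 genes. Small differences between R396Q and empty vector could thus be missed. A fit on only these 2 groups also called none of the 8 (lowest limma adjusted p = 0.112, for Kel). The median log2 change of the 8 genes was 2.63 with wild type, -0.02 with R396Q and -2.81 for R396Q against wild type, beside -0.01, -0.01 and 0.00 over all clusters. These comparisons share arrays, since empty vector serves as control for both GATA2 forms and the wild type arrays enter the first and the third.

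All values below are log2 signals, so a difference of 1 is a doubling, and they are of sorted cells in bulk. Fewer cells of a type and less RNA per cell cannot be told apart in such data. Median signals per array ran from 6.06 to 6.19 and lower quartiles from 4.54 to 4.60. Outside the wild type group, 7 of the 8 genes lay below the median of each array, at 5.91 or less, while Aqp1 lay between 5.57 and 7.17, on either side of it. The values used here carry no call of signal over background. A fold from a dim base is smaller on an array than in the RNA where background adds to the signal. The Gata2 cluster was read as a check of the labels. The empty vector holds no GATA2 cDNA, so the signal of the cluster there does not come from the vector. How much of the signal in the other groups came from the cDNA was not measured. Gata2 averaged 9.73 with empty vector, 11.22 with wild type and 10.63 with R396Q. It passed in limma for wild type (adjusted p = 0.0016) and R396Q (adjusted p = 0.0394) against empty vector. The difference of R396Q from wild type was -0.59 (limma adjusted p = 0.0633). With the replicate number as a block R396Q was the lower in limma (adjusted p = 0.0222), with differences of -0.85, -0.52 and -0.41 within numbers. The part of the lower Gata2 signal in the differences between the GATA2 forms was not tested.

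Among the channels and carriers, Aqp1 stood out. Its signals were 6.18, 6.27 and 5.57 with empty vector, 13.43, 11.57 and 13.36 with wild type, and 7.17, 6.62 and 6.16 with R396Q. Wild type lay far above both other groups, while empty vector and R396Q overlapped. The change with wild type was 6.78 (SE 0.54, 95% interval 5.50 to 8.06, limma adjusted p = 0.00078), rank 6 of all clusters by absolute size. R396Q was 6.14 below wild type on the log2 scale (70.3-fold, SE 0.54, limma adjusted p = 0.00177). Against empty vector R396Q differed by 0.64 (SE 0.54, 95% interval -0.63 to 1.92, limma adjusted p = 0.707). Its differences within replicate numbers 1, 2 and 3 were 0.99, 0.35 and 0.59, all above 0. No other gene of the 8 had a mean difference from empty vector of this size upward with R396Q.

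Rhag, the ammonia and gas channel of the Rh complex, read 5.91, 5.24 and 5.48 with empty vector, 10.45, 8.61 and 8.95 with wild type, and 5.26, 5.02 and 4.99 with R396Q. Every wild type array was more than 2 units above every other array. The rise with wild type was 3.79 (SE 0.46, 95% interval 2.71 to 4.88, limma adjusted p = 0.00377), and R396Q was 19-fold lower than wild type (SE 0.46 on the log2 scale, limma adjusted p = 0.00348). R396Q differed from empty vector by -0.45 (95% interval -1.53 to 0.63).

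Slc4a1, the anion exchanger and the most abundant membrane protein of mature red cells, was near the lower quartile of the arrays throughout. It read 4.76, 4.74 and 4.72 with empty vector, 5.64, 4.76 and 4.87 with wild type, and 4.72, 4.74 and 4.72 with R396Q. Only wild type replicate 1 stood clear of the other arrays. The change with wild type was 0.35 (SE 0.21, 95% interval -0.15 to 0.85, limma adjusted p = 0.392). Replicate 2 of wild type and replicate 1 of empty vector both read 4.76, and the wild type value is the higher only beyond the second decimal. R396Q was at -0.36 against wild type (95% interval -0.86 to 0.14).

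**Figure D2:**
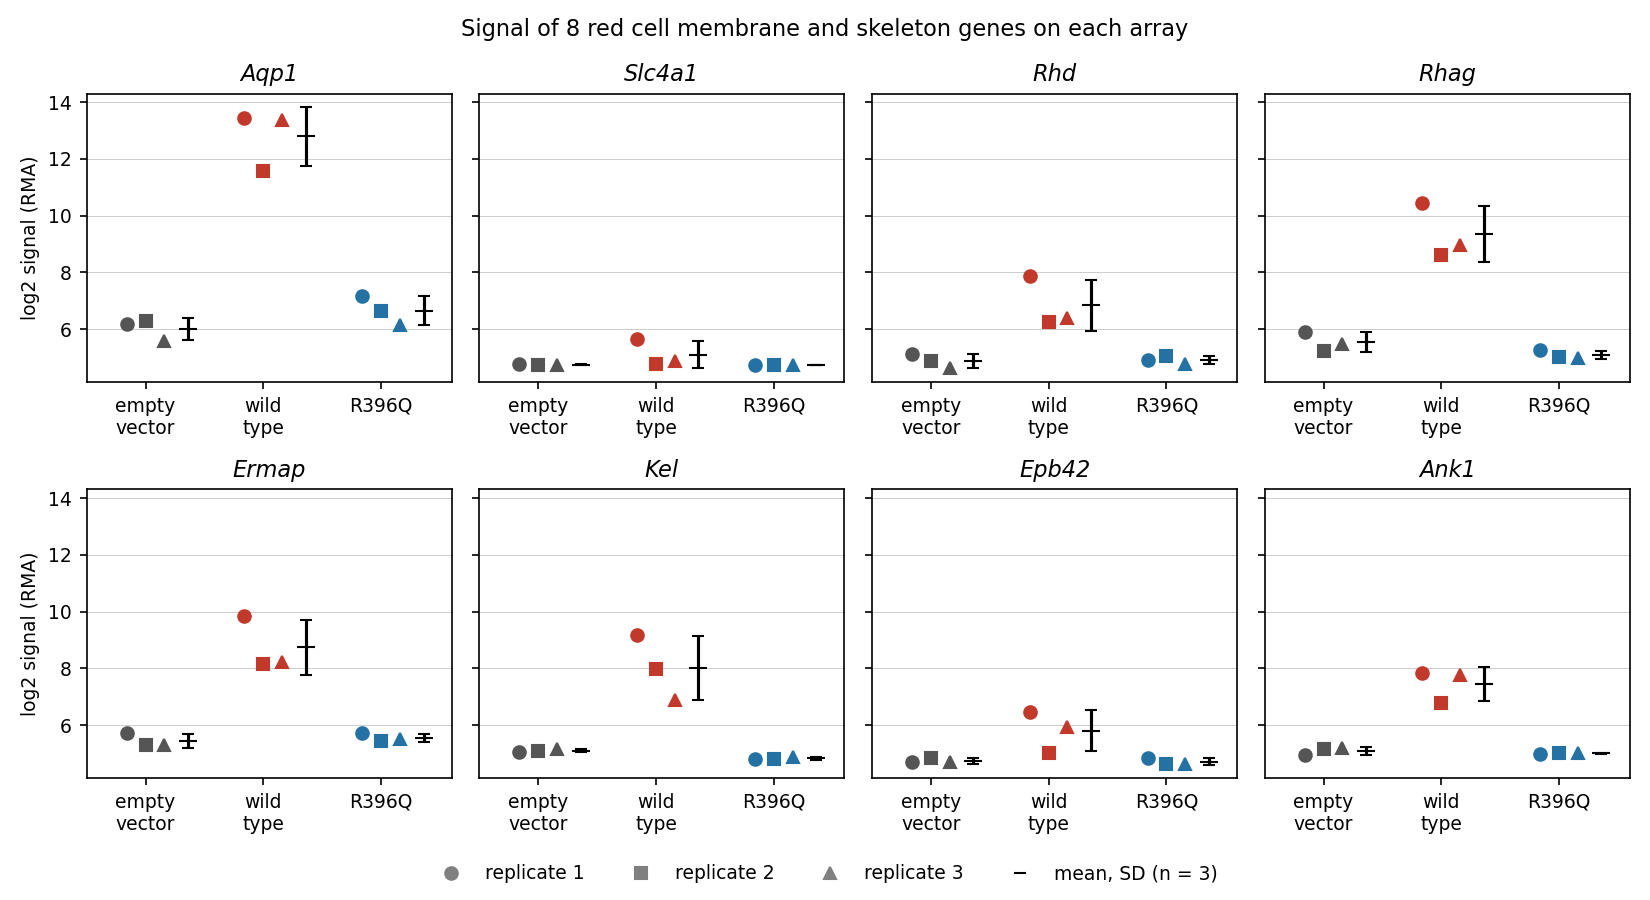
Log2 signal on the y axis for each of the 8 genes on each of the 9 arrays, by group on the x axis. Symbols mark the replicate numbers, and the black bar beside each group gives its mean and SD (n = 3). Wild type replicate 1 is the highest array for all 8 genes, and empty vector and R396Q lie close together, below the array medians for all but Aqp1.

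All 3 genes for the blood group proteins Rhd, Ermap and Kel rose with wild type. Ermap read 5.71, 5.29 and 5.30 with empty vector, 9.85, 8.16 and 8.21 with wild type, and 5.72, 5.43 and 5.50 with R396Q. Its rise with wild type was 3.31 (SE 0.44, limma adjusted p = 0.00572), and R396Q was 9.14-fold lower than wild type (limma adjusted p = 0.0088). The R396Q and empty vector arrays were interleaved, with a difference of 0.12 (95% interval -0.93 to 1.16).

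Kel, which cleaves big endothelin-3 at the red cell surface, read 5.06, 5.07 and 5.15 with empty vector, 9.17, 7.97 and 6.89 with wild type, and 4.80, 4.80 and 4.89 with R396Q. It was the only 1 of the 8 whose lowest wild type array was replicate 3. The rise was 2.92 (SE 0.50, limma adjusted p = 0.0145) and R396Q was 9.08-fold lower than wild type (limma adjusted p = 0.0139). Kel was also the only 1 of the 8 whose R396Q arrays all lay below the empty vector arrays, a separation that 7.10% of all clusters showed. The difference was -0.26, -0.27 and -0.26 within the 3 replicate numbers, but it did not pass limma (-0.27, SE 0.50, adjusted p = 0.899, and 0.821 with the replicate number as a block). Here limma's SE is common to the 3 groups and takes in the spread of the wild type arrays (SD 1.14), which was far wider than that of empty vector (SD 0.05) and R396Q (SD 0.05). The Kel calls were lost in limma when 1 array was left out, namely empty vector 1 for the rise (adjusted p = 0.051) and R396Q 1 (adjusted p = 0.057) or R396Q 2 (adjusted p = 0.0559) for the difference between GATA2 forms.

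Rhd, which encodes the Rh antigen protein, read 5.11, 4.88 and 4.64 with empty vector, 7.87, 6.24 and 6.40 with wild type, and 4.90, 5.05 and 4.76 with R396Q. All wild type arrays were above all others, with replicate 1 apart from the other two. The rise was 1.96 (SE 0.41, 95% interval 0.98 to 2.94, limma adjusted p = 0.0305), and R396Q was 3.81-fold lower than wild type (limma adjusted p = 0.0443). Both calls sat close to the threshold. The rise missed it in limma without empty vector 1, 2 or 3 (adjusted p = 0.0707, 0.075 and 0.0978) or R396Q 1, 2 or 3 (0.0599, 0.0597 and 0.0568). The difference between GATA2 forms missed it in limma without empty vector 1, 2 or 3 (adjusted p = 0.0768, 0.0739 and 0.0755), wild type 3 (0.0653) or R396Q 1, 2 or 3 (0.134, 0.117 and 0.129). Leaving out R396Q arrays touches the rise over empty vector because all 9 arrays share 1 estimate of the spread. In a fit on only the groups compared, Rhd and Kel missed the threshold against empty vector (limma adjusted p = 0.116 and 0.0744), and Rhd, Kel and Ermap between the GATA2 forms (0.131, 0.071 and 0.051).

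Of the genes for proteins beneath the membrane, Ank1 rose and Epb42 did not pass. Ank1 read 4.93, 5.17 and 5.19 with empty vector, 7.82, 6.76 and 7.75 with wild type, and 4.97, 5.02 and 5.02 with R396Q. The wild type arrays were apart from the others by more than 1.5 units, and R396Q lay inside the range of empty vector. The rise was 2.35 (SE 0.27, limma adjusted p = 0.00319), and R396Q was 5.43-fold lower than wild type (limma adjusted p = 0.00369).

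Epb42 read 4.69, 4.85 and 4.68 with empty vector, 6.45, 5.01 and 5.94 with wild type, and 4.85, 4.64 and 4.64 with R396Q. Replicates 1 and 3 of wild type were more than 1 unit above all other groups' arrays, while replicate 2 was only slightly above them. The change with wild type was 1.06 (SE 0.33, 95% interval 0.29 to 1.83, limma adjusted p = 0.105), and R396Q was 1.09 below wild type (limma adjusted p = 0.128). Without wild type 2 both passed in limma, at 1.45 (adjusted p = 0.00687) and -1.48 (adjusted p = 0.00796).

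**Figure D3:**
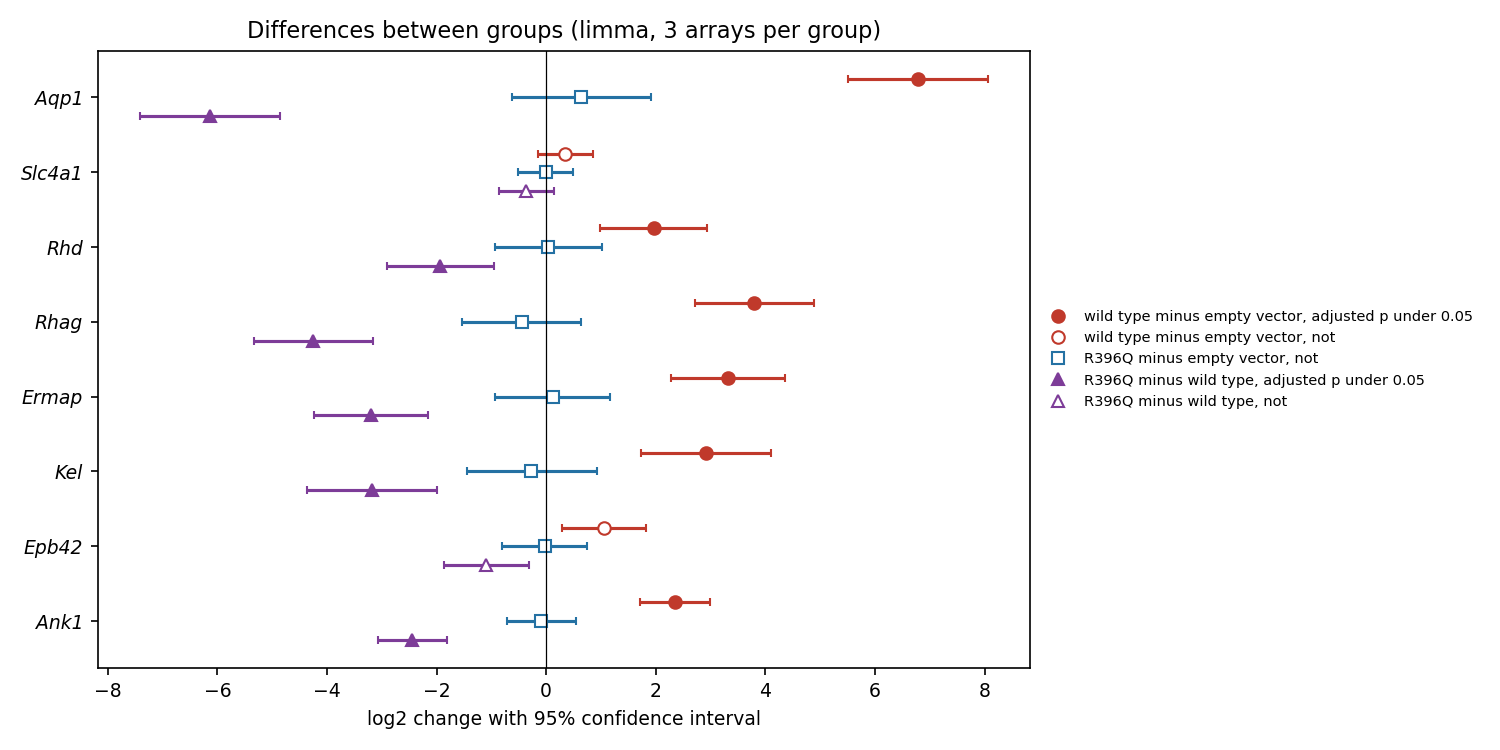
Log2 change on the x axis for each gene in 3 comparisons, with 95% confidence intervals from limma (3 arrays per group). Filled symbols have an adjusted p under 0.05. The wild type changes of 6 genes lie to the right of 0 and the R396Q changes against empty vector lie around 0, with intervals that span it for all 8.

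For the 8 genes, the wild type arrays differed among themselves more than those of the other groups. The SD of wild type was the largest of the 3 groups for 8 of 8 genes, beside 33.5% of all clusters and 49.4% of the 977 called higher with wild type. The median SD of the 8 genes was 0.93 with wild type, 0.19 with empty vector and 0.13 with R396Q. Over all 21072 clusters the median SD was 0.11 with wild type, 0.13 with empty vector and 0.09 with R396Q, so the wider spread was not general to the arrays. Wild type 1 was the highest of its group for 8 of 8 genes and wild type 2 the lowest for 7 of 8. Among the 977 clusters called higher, wild type 1 was highest in 46.5% and wild type 2 lowest in 48.4%. These shares describe the arrays, and the 8 genes were not tested against them, since genes of 1 set on 3 arrays are not independent. Within replicate numbers 1, 2 and 3, the differences of wild type from empty vector were 4.54, 3.37 and 3.47 for Rhag, 2.76, 1.36 and 1.76 for Rhd, and 1.76, 0.16 and 1.26 for Epb42. Every one of the 24 differences was above 0, the smallest being 0.02 for Slc4a1 in number 2. With the replicate number as a block, the same 6 genes were called in both comparisons with wild type (8.00% of all clusters called higher and 5.95% called lower).

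**Figure D4:**
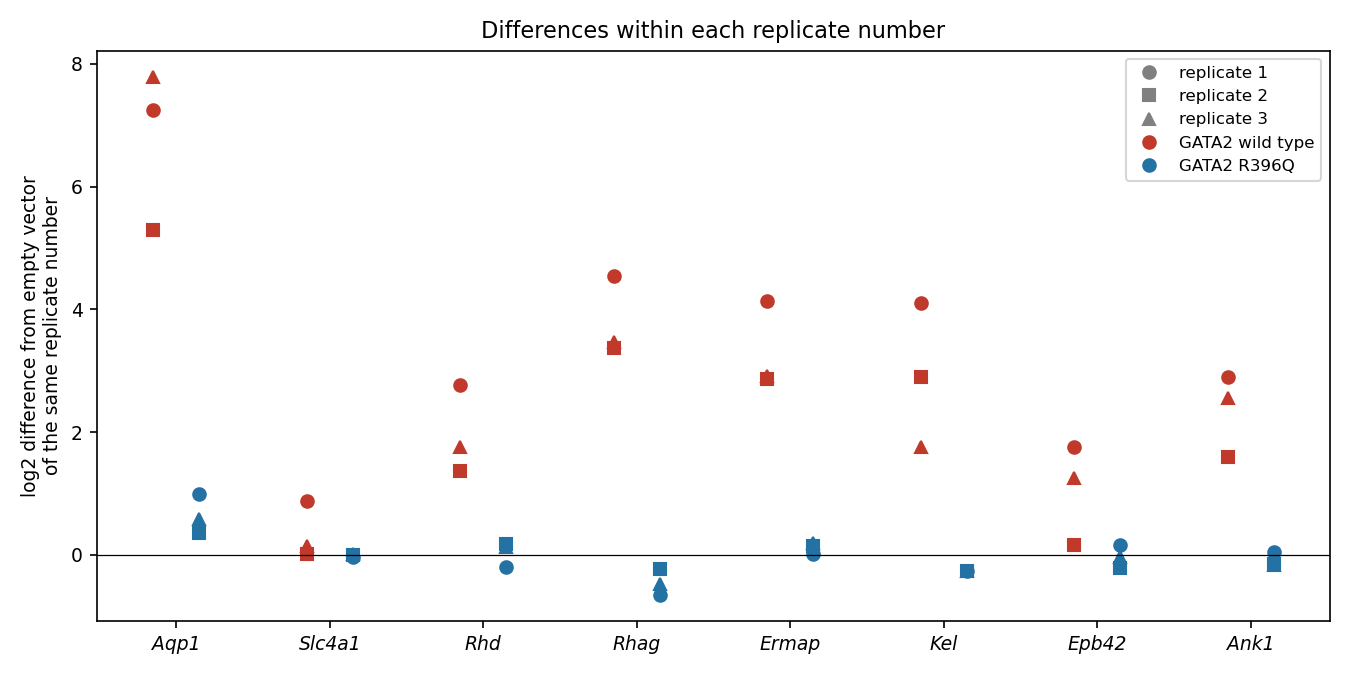
Log2 difference from the empty vector array of the same replicate number on the y axis, for wild type (red) and R396Q (blue), with a symbol for each replicate number. The wild type differences lie between 0.02 and 7.79, and those of R396Q between -0.65 and 0.99.

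Other genes of the red cell membrane and skeleton followed in part. Of 46 listed, 39 were measured with a symbol of their own, and 19 rose and 2 fell with wild type (limma), with a median change of 0.57. Of all clusters, 4.64% rose and 4.35% fell with wild type. With R396Q against empty vector none of the 39 passed in limma (1.23% of all clusters in either direction). An unadjusted p under 0.05 was found for 5, and the share of all clusters below it was not counted. Against wild type, 18 were lower with R396Q and none higher (3.08% of all clusters lower and 2.67% higher). With the replicate number as a block, 22 rose and 4 fell with wild type, 2 were lower with R396Q than with empty vector, and 21 were lower and 2 higher (Slc16a1 and Piezo1) with R396Q than with wild type. Of all clusters, the block called 8.00% higher with wild type. It called 1.34% lower with R396Q than with empty vector and 5.95% lower with R396Q than with wild type. The shares beside the 4 that fell and the 2 that were higher are not given. The list includes widely expressed genes, such as Actb and Bsg, and was written with earlier results of these arrays known. Sptb, Dmtn, Gypc, Xk, Bcam, Smim1, Cd44, Slc16a1 and the genes given below as not passing fall outside the rule for naming and were chosen after their values were seen.

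In the skeleton, Add2, the beta subunit of adducin that caps actin and recruits spectrin, rose from 4.69 to 7.16 with wild type and averaged 4.84 with R396Q (2.47, SE 0.18, limma adjusted p = 0.000623). Tmod1, which caps the other end of the actin filaments, rose from 5.48 to 7.53 (SE 0.15, limma adjusted p = 0.000555). Add3, the gamma subunit of adducin, rose by 1.33 (SE 0.12, limma adjusted p = 0.00124). Sptb, the beta spectrin that binds ankyrin, rose by 1.01 (SE 0.19, limma adjusted p = 0.0202), and Dmtn, which bundles actin, by 0.64 (SE 0.12, limma adjusted p = 0.0238). Tmod3 (0.57) and Tpm3 (-0.24), both expressed in many cell types, did not pass in limma, though Tmod3 did with the block (adjusted p = 0.0134).

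Among membrane proteins, Tspan33, a tetraspanin of erythroid cells, rose 4.71 on the log2 scale (SE 0.37, limma adjusted p = 0.00078). Atp1b2, a beta subunit of the sodium pump, rose from 5.15 to 9.16 (SE of the change 0.46, limma adjusted p = 0.00319). Genes whose products carry blood groups were among those that rose, with Icam4 (Landsteiner-Wiener) at 3.91, Slc14a1 (the urea transporter of the Kidd group) at 3.19, Art4 (Dombrock) at 2.90 and Abcg2 (Junior) at 2.41. The corresponding R396Q changes were 0.45, -0.35, 0.50 and 0.03, none past the test in limma. Abcb6 (the Langereis group) rose by 2.01, Aqp9, an aquaglyceroporin, by 1.84, and the amino acid transporter Slc43a1 by 1.73. Bcam, of the Lutheran group, rose by 0.99, Smim1, of the Vel group, by 0.73, and Gypc, the glycophorin that binds protein 4.1, by 1.01. Others that carry blood groups did not pass in limma, with Ackr1 (Duffy) at 0.72 (adjusted p = 0.154, and 0.0325 with the block), Cd59a at 0.52, Bsg at 0.24 (adjusted p = 0.418, and 0.0338 with the block), Sema7a at 0.05 and Aqp3 at 0.01. Blood group genes were not a list of their own, and no count of them was tested. Xk, to which Kell is bound, rose by 0.34 (SE 0.08, limma adjusted p = 0.041), a much smaller change than that of Kel.

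The 2 that fell with wild type without the block were Cd44, an adhesion receptor that carries the Indian blood group and is lost as erythroblasts mature (-1.35, SE 0.24, limma adjusted p = 0.0159), and the lactate transporter Slc16a1 (-0.96, SE 0.15, limma adjusted p = 0.00942). Cd44 was also lower with R396Q (-1.19), with a limma adjusted p of 0.0787 (0.0109 with the block), and the difference between the GATA2 forms was 0.16 (limma adjusted p = 0.837). Cd47 (0.03) and Slc2a1, the glucose transporter (-0.36), did not pass with wild type.

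**Figure D5:**
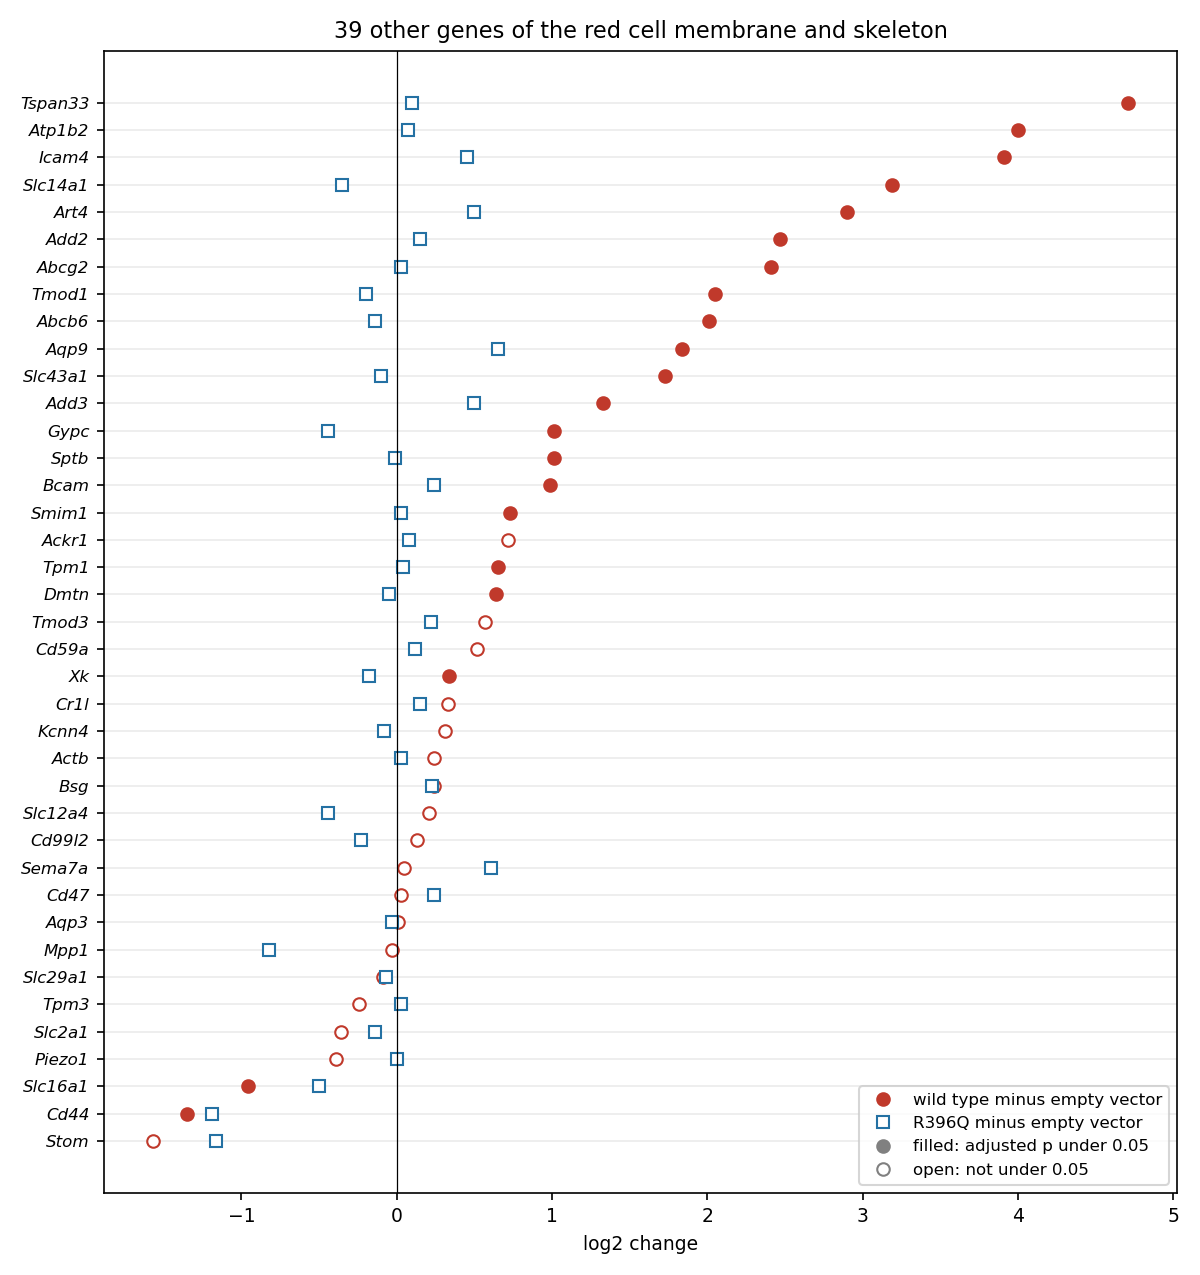
Log2 change over empty vector on the x axis for 39 other genes of the red cell membrane and skeleton, ordered by the wild type change, with wild type as circles and R396Q as squares. Filled symbols have a limma adjusted p under 0.05. The wild type changes reach 4.71 for Tspan33, while those of R396Q lie between -1.19 and 0.65 and are all open.

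A further list held relatives of the 8 genes that serve other tissues or all cells. It also held relatives of spectrin and protein 4.1, which are not among the 8. Of 35 measured, 3 rose and 3 fell with wild type in limma, and 29 did neither. Of all clusters, 4.64% rose and 4.35% fell. The median change of the 35 was 0.00. Slc4a2, the anion exchanger of most cells, differed by 0.20 (SE 0.18, limma adjusted p = 0.583), and the other measured Slc4 genes (Slc4a3, Slc4a4, Slc4a5, Slc4a8, Slc4a10 and Slc4a11) by -0.12 to 0.00. Rhcg, a relative of Rhag, differed by -0.07, Ece1, an endothelin-converting enzyme of the family of Kell, by 0.34, and Ank3 by 0.16, none past the test in limma. The 3 that rose were Tgm1, a transglutaminase (2.06, SE 0.43, limma adjusted p = 0.0303), and the water channels Aqp11 (0.72) and Aqp2 (0.14). The 3 that fell were F13a1, the clotting factor transglutaminase of platelets and macrophages (-3.33), Epb41l2, a relative of protein 4.1 (-0.83), and Sptbn1, the beta spectrin of non-erythroid cells (-0.66, SE 0.10, limma adjusted p = 0.0105). Sptbn1 was 0.97 higher with R396Q than with wild type (limma adjusted p = 0.00348), the opposite order to Sptb, which was lower by 1.01 (limma adjusted p = 0.026). F13a1 was lower with R396Q too (-3.39, limma adjusted p = 0.0315).

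Of 19 regulators and signaling genes of red cell precursors, 10 were higher with wild type and none lower in limma, with a median change of 0.90. Of all clusters, 4.64% were called higher and 4.35% lower. The 10 include Gata2 (1.49, limma adjusted p = 0.0016), whose cDNA the virus carried. How much of that rise came from the cDNA was not measured. Whether the listed genes act on the membrane genes in these cells was not tested. With the replicate number as a block 13 of the 19 were higher and 1 lower, the latter being Myb, a progenitor factor (-0.46, limma adjusted p = 0.0347 with the block and 0.186 without). Klf1 rose from 5.78 to 10.49 and averaged 5.68 with R396Q (limma adjusted p = 0.00106 and 0.00147 for wild type against empty vector and R396Q against wild type). Epor, the erythropoietin receptor, rose by 2.55, the GATA cofactor Zfpm1 by 2.79 and Gfi1b by 4.26, while Gata1 rose by 0.90 (limma adjusted p = 0.00774). Ldb1 (-0.08) and Lmo2 (-0.21), bridging proteins of the GATA1 complex, did not pass. Of 22 genes that mark steps of red cell maturation, 9 rose and 2 fell with wild type, the 2 being the progenitor genes Kit and Cd34. Car1 (7.25) and Mfsd2b (3.95) were among those that rose in limma. Alas2, which starts heme synthesis in red cell precursors, rose by 1.13 (SE 0.27, limma adjusted p = 0.0467). The other 11 did not pass in limma. With the replicate number as a block, 11 of the 22 rose and 2 fell, while 8.00% of all clusters rose. Trim58 (1.26, limma adjusted p = 0.0491 with the block) was among those that passed only with it.

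Over the 9 arrays, each profile less its own mean, the genes most like each of the 8 were found by the root mean square difference of log2 signals among 4061 other genes with a range of at least 1. For Ank1 the nearest was Add2 (0.18), followed by Samd14 (0.23) and Nepn (0.25). For Epb42 the nearest was Alas2 (0.11), then Efnb1 (0.16) and Ranbp10 (0.18). Alas2 read 7.13, 5.96 and 6.69 on the wild type arrays, so it too was lowest on replicate 2. Rhag was nearest to Atp1b2, Cd200r3 and Treml1 (0.34 each), of which the last is a platelet gene and the second a basophil and mast cell gene. Ermap was nearest to Clca3a1 (0.23), Ampd3 (0.29) and Abcb4 (0.30), and Kel to Hrc (0.38), Abcb4 (0.39) and Grm6 (0.43). Aqp1, whose change was larger than that of nearly all genes, had no close match, with Cldn13 (0.56), Ces2g (0.69) and Car1 (0.71) nearest. Rhd was nearest to Cavin2 (0.19), Pde10a (0.22) and Aldh1a7 (0.24). Slc4a1 was nearest to F8a (0.07), Stxbp3 (0.09) and Adam19 (0.11), each of which was highest on wild type 1, so this likeness rests largely on 1 array. Among the 8 themselves, Ermap and Kel were closest (0.36), then Epb42 and Slc4a1 (0.40). Of the 4061 other genes, 5 were closer to Ermap than Kel was, while 310 were closer to Epb42 than Slc4a1 was.

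The genes on either side of each of the 8 in the GRCm38.p6 gene order were looked up as well. Of the 16 nearest measured genes, a set chosen after the values of the 8 were seen, 1 passed in limma with wild type. This was Ccndbp1, next to Epb42 (0.51, SE 0.11, limma adjusted p = 0.0284). Over all clusters, 4.64% were called higher and 4.35% lower. Tgm5, a transglutaminase gene on the other side of Epb42, differed by 0.00. Mindy4 and Ghrhr, beside Aqp1, differed by -0.15 and 0.01. Mir486, a microRNA gene listed after Ank1 in this order, differed by 0.19 (limma adjusted p = 0.326). The order is by start position, so a gene that starts inside Ank1 would also be listed after it.

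Markers of other cell types moved in the same comparison. Of all clusters, 4.64% were called higher and 4.35% lower with wild type in limma. The share called lower with the replicate number as a block is not given. Of 12 megakaryocyte markers 9 rose with wild type, and the log2 of their summed signal was 14.05 to 16.15 with empty vector, 16.57 to 17.25 with wild type and 14.03 to 16.33 with R396Q. Of 15 mast cell and basophil markers 6 rose, with a log2 of the summed signal of 15.71 to 16.91, 17.97 to 18.87 and 17.57 to 17.88. Of 18 neutrophil and monocyte markers 8 fell and none rose in limma (14 fell with the replicate number as a block), with a log2 of the summed signal of 18.20 to 19.16, 13.82 to 16.18 and 17.12 to 18.76. In both of the first 2 lists wild type 1 was the highest and wild type 2 the lowest array of its group, as for most of the 8 genes. Wild type 1 was also the highest by summed signal, and wild type 3 the lowest, for the neutrophil and monocyte markers. The same held for the endothelial and stromal markers given below. Aqp1 is also a gene of vessel lining cells. Of 15 endothelial and stromal markers 2 rose (Tek and Eng) and 1 fell (Flt1) with wild type. The log2 of their summed signal was 11.39 to 11.70, 11.26 to 11.74 and 12.26 to 12.39. Below the lower quartile of the array lay 4, 3 and 4 of the 15 on wild type 1, 2 and 3. The counts were 3, 3 and 2 with empty vector and 2, 3 and 3 with R396Q. On this log2 scale no marker reads 0. The part of these cells in the results was not tested.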

How the data were processed

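The authors deposited 1 log2 value per transcript cluster and array for 9 arrays, and the submitters' processing notes name RMA and the program Expression Console. The version and the genome build are not given in the sources used here, so gene positions are given only for RefSeq promoter sequences (GRCm38.p6). According to the labels the array was Mouse Exon 1.0 ST, but the cluster identifiers are of a later type. Values were used as deposited, and none were filtered. Of 21072 clusters, 18992 had 1 symbol, 1390 several and 690 none. Symbols were updated through gene identifiers (418 changed), and Epb4.2 became Epb42. A symbol with several clusters took the one with the highest mean. The test was the moderated linear model of limma 3.58.1 (R 4.3.3) with a mean for each group, 2-sided, with Benjamini-Hochberg adjustment over all clusters. It had 6 residual degrees of freedom and 0.956 from the prior. The procedure was tested on simulated data. The members and lists were chosen with earlier results of these data known. The text names the 8 genes, up to 12 called genes per list by smallest p, and 3 nearest profiles per gene, and any other gene was chosen after its values were seen. Deviations from the group means correlated between arrays that share a replicate number (r of 0.451 to 0.693 for 9 pairs, against -0.537 to -0.09 for different numbers), so the number was also fitted as a block. The labels do not say what the numbers share, and all p-values rest on the spread among these arrays alone, which may be technical. With 3 arrays in each group, their number limits the precision. Alternatives were the block, only the groups compared, trend and robust options, array weights, median and quantile scaling, leaving out the dimmest 30% or 50%, at least 6 distinct values, averaging the clusters that share a symbol, and dropping 1 array at a time.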

Additional observations from a re-analysis of the deposited data

How the results depend on the processing

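No called change of the 8 genes changed direction in any alternative. Of their 83 values under settings other than leaving out an array, 80 (wild type against empty vector), 80 (R396Q against empty vector) and 79 (R396Q against wild type) kept direction and side of the threshold. For R396Q against empty vector, the lowest adjusted p in limma was 0.112. With the replicate block the count of members called stayed at 6 and the call of none of the 8 changed, and it was 7 with it over clusters of at least 6 distinct values, where Epb42 passed. For R396Q against wild type it was 3 in a fit on only the 2 groups, the cause of which was not tested. Without the dimmest 50% only 3 of the 8 genes remained and all 3 were called, in both comparisons with wild type. Leaving out each array gave 4 to 7 called members for wild type against empty vector, 4 to 7 for R396Q against wild type and 0 to 0 for R396Q against empty vector. The 39 other membrane genes gave 15 to 20, 13 to 16 and 0 to 1 in the same order. The single call was Add3, without wild type 1. Their count for R396Q against wild type was 11 on only the 2 groups, and for R396Q against empty vector 2 with the replicate block (Cd44 and Slc16a1, both lower), 1 after median subtraction, 1 without the dimmest 50%, 1 with at least 6 distinct values (Cd44 each time) and 5 with that filter and the block. Median and quantile scaling moved the median of all clusters by less than 0.1. Outside the wild type group the signals of Slc4a1 and Epb42 were dim, which limits what these arrays can show. Rhd, Kel and Ank1 were about as dim there and were called in both comparisons with wild type in the main fit. The part of dim signals in the results for Slc4a1 and Epb42 was not tested.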
